A study of Mus musculus with 6 samples.

Results

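The genes for fibronectin, both hemicentins and a set of secreted matrix proteins (Fn1, Hmcn1, Hmcn2, Tnc, Thbs1, Postn, Sparc, Spp1, Fbn1 and Eln) were followed in RNA from isolated mouse heart muscle cells. The members were the 10 rows of the deposited table of 22063 rows whose symbol was one of these names, and each symbol matched 1 row. The AKG group held 3 libraries from WT mice injected daily with α-ketoglutarate (alpha-KG, here AKG), a metabolite of the tricarboxylic acid cycle, at a daily dose of 300 mg per kg. The Control group held 3 libraries from WT mice injected with PBS. Injections ran for 2 weeks in mice named as P21 (postnatal day 21), and cells were isolated with Langendorff perfusion, in which enzyme is run through the coronary vessels. Whether each library stood for 1 mouse or for several was not in the labels, so p-values measure only the spread between these libraries, which may be technical. The comparison asks how daily AKG changed the transcripts of these preparations.

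Fibronectin is a secreted glycoprotein that cells pull into fibrils through integrins, and it forms the early scaffold of a growing or healing matrix. Fibrillin microfibrils and elastin make up the elastic fibres of vessels and valves. Matricellular proteins such as tenascin C, thrombospondin 1, periostin, SPARC and osteopontin are secreted into the matrix but mainly tune how cells attach and signal. In the heart, fibroblasts, vascular wall cells and valve cells are known as main sources of most of these proteins, and they are abundant in the growing heart and again after injury. Hemicentins are very long extracellular proteins that anchor tissues to each other at basement membranes.

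Of the 10 genes, Fn1, Spp1, Postn, Fbn1 and Hmcn1 rose after AKG, Hmcn2 and Sparc fell, and Thbs1, Eln and Tnc did not pass the test. The sizes ranged widely: Spp1 was 5.86-fold higher, Fn1 2.00-fold higher and Hmcn2 14.6-fold lower. Calls were made at an adjusted p under 0.05 in edgeR's quasi-likelihood test, with Benjamini-Hochberg adjustment over all 13117 genes with enough counts, and all 10 members passed the count filter. At that threshold 25% of all tested genes were called higher in AKG and 25.2% lower, beside 5 and 2 of the 10 members. With total counts as the scaling 6 members were higher beside 56.7% of tested genes, and with limma on log2(FPKM + 1) 7 were higher beside 58.1%, so the members' share lay above the background with TMM but close to it with total counts. With a change of at least 2-fold required as well, 1 member was higher (Spp1) and 1 lower (Hmcn2), where 4.7% of tested genes were higher and 6.12% lower. The AKG libraries lay wholly above the Controls for 5 members and wholly below for 2, beside 29.4% and 29.9% of all tested genes. The median log2 fold change of the members was 0.44, against 0.00 for all tested genes. The members were chosen with earlier results of these data known, so these counts describe them and test nothing.

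**Figure D1:**
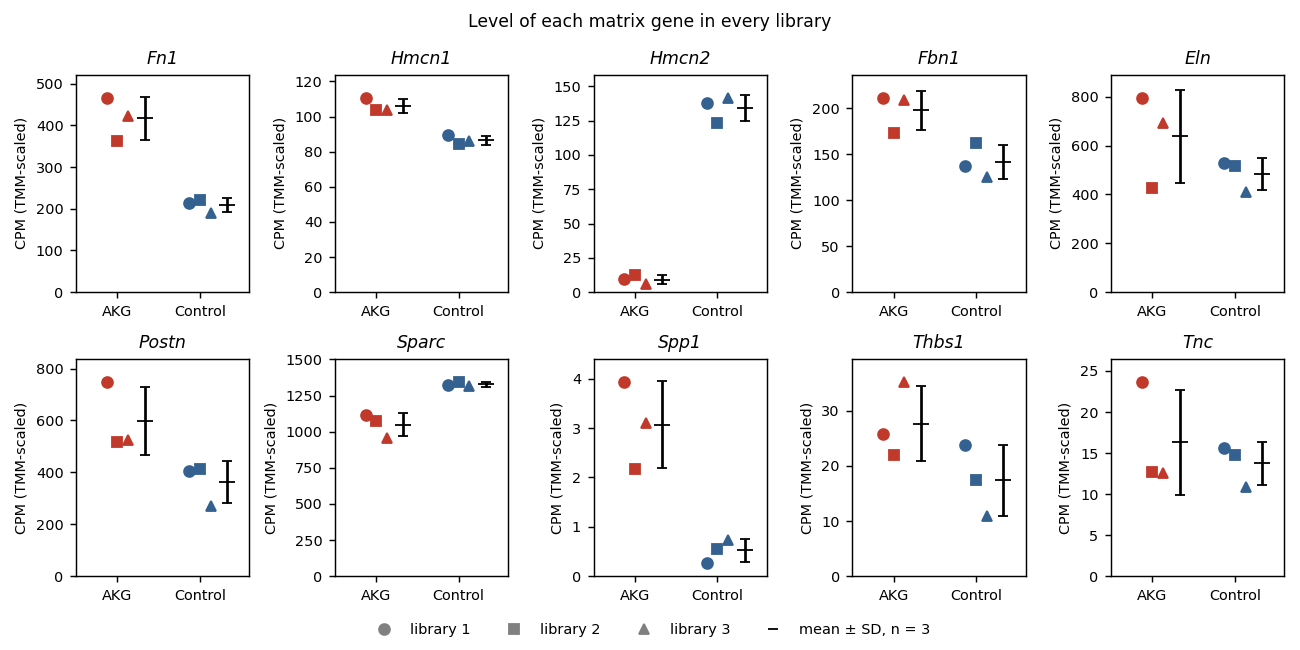
Level of each of the 10 genes in CPM (counts relative to library totals adjusted by TMM, the trimmed mean of M-values) in every AKG library (red, left) and Control library (blue, right), with a symbol shape for each replicate number and the mean ± SD beside them (n = 3). The groups are apart for Fn1, Hmcn1, Hmcn2, Fbn1, Postn, Sparc and Spp1 and overlap for Eln, Thbs1 and Tnc.

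Libraries held 14402875 to 15315233 counts in AKG and 16241111 to 17797348 in Control, so 3 counts were worth 0.166 to 0.221 CPM. Cell type markers showed that the preparations were not pure. Summed cardiomyocyte markers (12 genes) stood at 38300 to 41943 CPM in AKG and 79123 to 85750 CPM in Control. Summed fibroblast markers (14 genes, none of them a member) stood at 3134, 2425 and 2553 CPM in AKG 1, 2 and 3 and 3347, 3204 and 2704 CPM in Control 1, 2 and 3. Of that list 7 genes fell and 2 rose, beside 25.2% and 25% of all tested genes, with a median log2 fold change of -0.40. The collagen genes Col1a1, Col1a2 and Col3a1, none of them called, made up 75.1 to 79.5% of the sum in AKG and 69.5 to 73.8% in Control. Endothelial markers (10 genes) summed to 2251 to 2795 CPM in AKG and 2449 to 2702 CPM in Control. None of the markers of these lists was at 0 in all libraries. Scaling mattered: with total counts in place of TMM the median log2 fold change of all tested genes moved to 0.45, with 7431 genes higher and 1196 lower. Mitochondrially encoded transcripts took 25.7 to 31.4% of counts in AKG and 38.3 to 43.1% in Control, so they moved with the group, and with these genes left out the calls for the members were the same. Values below are TMM-scaled unless a sentence says otherwise, so they are relative to the bulk of genes. In bulk RNA, fewer cells of a type and less RNA per cell cannot be told apart. Y-linked transcripts summed to 39.0 to 89.2 CPM in AKG and to 168, 0.311 and 176 CPM in Controls 1, 2 and 3, and Control 2 stood apart from the other Controls. The AKG libraries lay between Control 2 and the other Controls. The share of male cells may therefore differ between libraries and between groups, and its part was not tested. Without Control 2, 5 members were called higher and 2 lower, but AKG still differed from Controls 1 and 3 in these transcripts.

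Per unit of length, the secreted glycoprotein SPARC gave the most abundant transcript of the set. FPKM, which the authors scaled to transcript length and library total, put Sparc at 558 ± 22.9 in AKG and 513 ± 29.3 in Control (SD, n = 3 each). Eln followed at 231 ± 70.8 FPKM in AKG and 140 ± 21.8 FPKM in Control, and Postn at 230 ± 48.1 and 106 ± 24.0 FPKM. The ranges of Eln and Postn overlapped in both groups. Within libraries Eln lay above Postn in each Control, in AKG 1 and in AKG 3, but below it in AKG 2, so their order was not set in AKG. Fn1 was next at 62.8 ± 7.55 FPKM in AKG and 25.2 ± 2.47 FPKM in Control, and then Fbn1 at 23.5 ± 3.31 and 12.3 ± 2.22 FPKM. Hmcn2 was the lowest of the 10 in AKG, at 0.682 ± 0.226 FPKM, and stood at rank 6 in Control, at 7.36 ± 0.219 FPKM. Spp1 was at rank 9 in AKG, at 2.55 ± 0.768 FPKM, and the lowest in Control, at 0.319 ± 0.142 FPKM. In AKG the FPKM values of Hmcn1 overlapped those of Thbs1, though Hmcn1 lay above Thbs1 within each library. Those of Tnc overlapped those of Spp1, with an order that differed between libraries. In Control those of Thbs1 and Tnc overlapped, though Thbs1 lay above Tnc within each library. All other neighbours in either order were apart in every library. The 10 genes together summed to 973 to 1268 FPKM in AKG and 739 to 884 FPKM in Control, and Sparc made up 45.9% to 55.2% of that sum in AKG and 60.8% to 67.3% in Control.

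Fibronectin transcript rose. Fn1 stood at 466, 364 and 423 CPM in AKG 1, 2 and 3, against 214, 222 and 191 CPM in Control 1, 2 and 3. Each AKG library lay above each Control, with AKG 1 highest and AKG 2 lowest of its group. Its log2 fold change was 0.998 with an SE of 0.0999, worked back from the test statistic (adjusted p = 3.13e-06 in edgeR's quasi-likelihood test). It was called higher in each of 22 other fits, with log2 fold changes of 0.76 to 1.44. Taken as a percentage of the summed fibroblast markers of the same library, Fn1 stood at 14.9, 14.99 and 16.6% in AKG and 6.41, 6.93 and 7.05% in Control, so it was higher against that list as well. With the mean log2 level of the fibroblast list as a covariate the log2 fold change was 1.37 (edgeR adjusted p = 0.00655). Of that list 7 genes fell and 2 rose, with a median log2 fold change of -0.40. The covariate and the group therefore moved partly together and cannot be fully told apart in that fit. Splice forms of fibronectin were not separated in the gene-level counts.

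Receptors and linkers of the fibronectin matrix were mixed, with more rises than falls. Of 18 genes on this list 7 rose and 2 fell, beside 25% and 25.2% of all tested genes, and 9 did not pass. The list had a median log2 fold change of 0.19. Itgb5, an integrin beta subunit that pairs with the αv subunit, averaged 102 ± 6.56 CPM in AKG and 57.5 ± 1.69 CPM in Control (SD, n = 3 each; edgeR adjusted p = 1.27e-06). Itgav, the αv subunit itself, averaged 36.5 ± 0.365 CPM in AKG and 23.3 ± 2.42 CPM in Control. Sdc1, a heparan sulfate proteoglycan of the cell surface, and Tns3, a tensin that links integrins to actin, rose by 0.87 and 0.78 on the log2 scale. Itga5, the alpha subunit of the classic fibronectin receptor, averaged 142 ± 2.66 CPM in AKG and 113 ± 2.34 CPM in Control (edgeR adjusted p = 0.00109). Its partner Itgb1 averaged 446 ± 20.4 CPM in AKG and 391 ± 13.1 CPM in Control and did not pass (edgeR adjusted p = 0.0596). When totals set the scaling, 14 of these genes were higher, beside 56.7% of all tested genes, and 0 were lower.

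The hemicentins moved in opposite directions. Hmcn2 stood at 9.61, 12.4 and 5.66 CPM in AKG 1, 2 and 3, against 138, 123 and 142 CPM in Control 1, 2 and 3. Every AKG library lay far below every Control. Its log2 fold change was -3.87 (SE 0.258, edgeR adjusted p = 7.67e-05), and Hmcn2 was called lower in all 22 other fits. It was the largest change of the set, resting on 473 counts over the AKG libraries and 5935 over the Controls. Hmcn1 stood at 111, 104 and 104 CPM in the AKG libraries, against 89.4, 84.3 and 86.2 CPM in the Controls. The groups were apart by a narrow margin, and the spread within each was small. Its log2 fold change was 0.29 (SE 0.0698, edgeR adjusted p = 0.00321), and it was 0.74 with total counts as the scaling, where all genes had a median of 0.45. Hmcn1 was not called with the fibroblast covariate (log2 fold change 0.42, edgeR adjusted p = 0.205) or with the atrial marker covariate (0.25, edgeR adjusted p = 0.0796).

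On the FPKM scale, where the lengths of these paralogs are taken into account, Hmcn2 made up 8.48, 11.3 and 5.37% of the hemicentin total in AKG 1, 2 and 3, against 63.6, 62.1 and 64.9% in the Controls. The predominant hemicentin transcript was therefore Hmcn1 in each AKG library and Hmcn2 in each Control. The sum of both was 7.87 to 8.43 FPKM in AKG and 11.5 to 11.7 FPKM in Control. No other gene shared exons with Hmcn2 in the GENCODE M21 annotation. Longest annotated transcripts were 15646 bases for Hmcn2 and 17908 bases for Hmcn1.

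**Figure D2:**
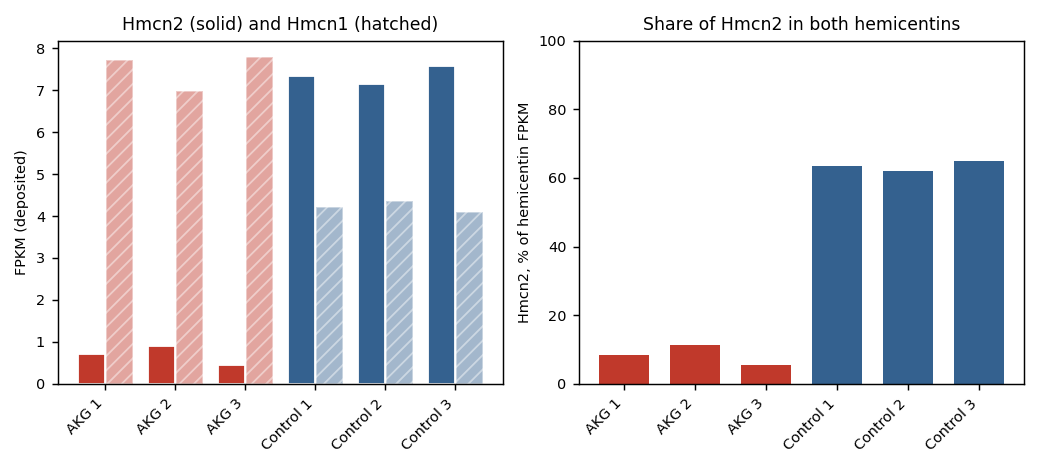
Left, deposited FPKM of Hmcn2 (solid bars) and Hmcn1 (hatched bars) in the AKG libraries (red) and Control libraries (blue). Right, Hmcn2 as a percentage of the FPKM of both hemicentins, which is 5.37 to 11.3% in AKG and 62.1 to 64.9% in Control.

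The 250 bases before the annotated start of both hemicentin genes are given because these paralogs moved apart. They come from RefSeq on GRCm38.p6, 5′ to 3′ on the strand of each gene: chr2:31314082-31314331 on the plus strand for Hmcn2 and chr1:150993436-150993685 on the minus strand for Hmcn1. In the GENCODE M21 annotation a transcript of Hmcn1 began at its RefSeq start, but none of Hmcn2 began at the start used here. Whether these starts were in use in these cells was not tested. Capitals mark matches to any of 5 motifs on either strand.
Hmcn2: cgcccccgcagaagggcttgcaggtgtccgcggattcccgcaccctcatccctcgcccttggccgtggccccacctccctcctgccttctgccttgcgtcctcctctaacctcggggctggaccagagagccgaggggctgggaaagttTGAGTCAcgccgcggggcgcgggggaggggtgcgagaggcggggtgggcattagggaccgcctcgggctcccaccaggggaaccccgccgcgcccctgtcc
Hmcn1: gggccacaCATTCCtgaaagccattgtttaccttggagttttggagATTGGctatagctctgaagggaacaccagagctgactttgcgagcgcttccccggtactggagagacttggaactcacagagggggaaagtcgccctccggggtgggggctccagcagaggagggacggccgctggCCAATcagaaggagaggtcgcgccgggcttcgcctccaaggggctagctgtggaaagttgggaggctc
The motifs were the letters TATAAA for the TATA box, CCAAT for the CCAAT box, GGGCGG for the GC box, TGANTCA for the AP-1 site and CATTCC for the TEAD site, and none of the marked matches overlapped another. The Hmcn2 window held 1 match, an AP-1 motif beginning 101 bases before the start, a motif held by 6.75% of all 32851 RefSeq windows of this length. The Hmcn1 window held CCAAT motifs beginning 204 and 68 bases before the start and a TEAD motif beginning 242 bases before it, motifs held by 33.8% and 12.6% of windows. Neither held a TATA or GC box in these letters, which 12.4% and 32.7% of windows did. The Hmcn2 window was 72.4% G and C and the Hmcn1 window 60.0%. These matches describe the sequence and are not evidence of binding. Of the 10 members 7 had a window in the table.

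Among the elastic fibre genes fibrillin 1 rose and elastin did not pass. Fbn1, the main microfibril protein, stood at 211, 174 and 209 CPM in AKG 1, 2 and 3, against 137, 162 and 125 CPM in the Controls. The groups were apart, but AKG 2 lay only a little above Control 2. On the log2 scale the change was 0.49 (SE 0.106, edgeR adjusted p = 0.00201). With AKG 2 alone against the Controls it was 0.30 and not called (edgeR adjusted p = 0.0616), and it was not called with the fibroblast covariate (0.75, edgeR adjusted p = 0.141) or the atrial covariate (0.27, edgeR adjusted p = 0.145). Eln, the rubber-like core of elastic fibres, stood at 795, 425 and 692 CPM in AKG 1, 2 and 3, against 527, 517 and 410 CPM in the Controls. AKG 1 and AKG 3 lay above all Controls while AKG 2 lay within them. The log2 fold change was 0.39 (SE 0.249, edgeR adjusted p = 0.242). Without AKG 2 it was 0.62 and called (edgeR adjusted p = 0.00113), and with AKG 2 alone it was -0.19 (edgeR adjusted p = 0.281).

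Companions of the elastic fibre went both ways. Of 23 genes 7 rose and 7 fell, beside 25% and 25.2% of all tested genes, and 9 did not pass. The list had a median log2 fold change of 0.11. Fbn2, the fibrillin typical of the developing embryo, averaged 67.8 ± 6.31 CPM in AKG and 27.9 ± 4.88 CPM in Control (SD, n = 3 each; log2 fold change 1.28, edgeR adjusted p = 6.0e-06). Emilin1, a glycoprotein at the surface of elastin, rose by 0.52 on the log2 scale (edgeR adjusted p = 9.94e-05). Mfap5, a small microfibril-associated protein, averaged 32.9 ± 1.118 CPM in AKG and 92.6 ± 11.7 CPM in Control (log2 fold change -1.49, edgeR adjusted p = 5.39e-08). Ltbp4, which binds latent TGF-beta and takes part in elastic fibre assembly, averaged 456 ± 18.6 CPM in AKG and 689 ± 20.1 CPM in Control. The collagen and elastin crosslinking enzyme gene Lox rose by 0.64 on the log2 scale. When totals set the scaling, 13 of these genes were higher, beside 56.7% of all tested genes, and 1 was lower. Mfap5 kept a log2 fold change of -1.05 there, and Ltbp4 stood at -0.15 and was not called (edgeR adjusted p = 0.147).

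Of the matricellular genes, Spp1 and Postn rose, Sparc fell on the TMM scale, and Thbs1 and Tnc did not pass. Spp1, the gene of osteopontin, an adhesive phosphoprotein of bone that is also made by activated macrophages, stood at 3.93, 2.17 and 3.11 CPM in AKG 1, 2 and 3, against 0.272, 0.559 and 0.736 CPM in the Controls. All AKG libraries were well above all Controls, at a low level: 70, 35 and 56 counts in AKG against 4, 9 and 10 counts in Control. Its log2 fold change was 2.55 (SE 0.384, edgeR adjusted p = 0.000103). With the fibroblast covariate it was 1.95 and not called (SE 1.21, edgeR adjusted p = 0.351). Markers of macrophages and monocytes (10 genes, none at 0 in all libraries) summed to 90.6 to 117 CPM in AKG and 137 to 213 CPM in Control. Of that list 0 rose and 4 fell, beside 25% and 25.2% of all tested genes. The summed neutrophil markers (7 genes, of which 4 could be tested) stood at 6.75, 11.1 and 13.6 CPM in AKG 1, 2 and 3 and 1.86 to 2.36 CPM in Control. AKG 1, the highest AKG library for Spp1, had the lowest neutrophil sum of its group. AKG 2, the lowest AKG library for Spp1, had the lowest macrophage and monocyte sum of its group. The part of either cell type in the Spp1 result was not tested.

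Postn, the gene of periostin, a matricellular protein of developing valves and of fibroblasts after injury, stood at 748, 517 and 524 CPM in AKG 1, 2 and 3, against 405, 413 and 270 CPM in the Controls. The groups were apart, with AKG 1 high and Control 3 low in their groups. On the log2 scale the change was 0.72 (SE 0.219, edgeR adjusted p = 0.0348). The call was lost without AKG 2 (0.82, edgeR adjusted p = 0.0531), without AKG 3 (0.81, 0.0979), with no filter on low counts (0.73, 0.0809), with AKG 2 alone (0.52, 0.357) and with the atrial covariate (0.42, 0.323). Against the summed fibroblast markers Postn stood at 23.9, 21.3 and 20.5% in AKG and 12.1, 12.9 and 9.99% in Control, and with the fibroblast covariate its log2 fold change was 1.79 (edgeR adjusted p = 0.0125). Markers fixed for activated fibroblasts, the state in which periostin is usually seen after injury, were mixed, with more falls than rises. Of 8 such genes 6 fell and 1 rose, beside 25.2% and 25% of all tested genes. The gene that rose was Cthrc1 (log2 fold change 1.02, edgeR adjusted p = 0.00408). The 8 markers summed to 112 to 263 CPM in AKG and 685 to 864 CPM in Control. Most of that sum was Acta2, the smooth muscle actin, at 70.5 to 210 CPM in AKG and 577 to 757 CPM in Control. The part of activated fibroblasts in the Postn result was not tested.

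Sparc, whose product binds collagen and calcium, stood at 1113, 1073 and 958 CPM in AKG 1, 2 and 3, against 1320, 1344 and 1316 CPM in the Controls. The Controls lay close together and above all AKG libraries. The log2 fold change was -0.34 (SE 0.0879, edgeR adjusted p = 0.00549). This direction depended on the scaling: with total counts the log2 fold change was 0.10 (edgeR adjusted p = 0.342), and the deposited FPKM values of the groups overlapped. In the authors' deposited table, where the fold change is the ratio of FPKM means, Sparc had a log2 fold change of 0.12 beside a false discovery rate of 7.83e-05. That table put 6 members at a positive and 1 at a negative fold change with a false discovery rate under 0.05. Of its 22033 named genes 16.3% and 10.4% were so called, a wider base than the 13117 genes tested here. The positive members were those called higher here plus Sparc. In the DESeq2 Wald test run here on the counts, Sparc stood at -0.34 (DESeq2 adjusted p = 6.86e-05). The sign of the FPKM ratio therefore need not be the direction behind that false discovery rate, for Sparc or for the shares of all genes.

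Thbs1, the gene of thrombospondin 1, which activates latent TGF-beta and inhibits vessel growth, stood at 25.8, 21.9 and 35.2 CPM in AKG 1, 2 and 3, against 23.8, 17.4 and 10.9 CPM in the Controls. AKG 2 lay below Control 1. Its log2 fold change was 0.67 (SE 0.329, edgeR adjusted p = 0.152), and it was called in 7 of 22 other fits, among them non-robust dispersion (edgeR adjusted p = 0.0401) and without Control 1 (edgeR adjusted p = 0.0362). Tnc, the gene of tenascin C, which is prominent in the embryo and at wound edges, stood at 23.7, 12.7 and 12.5 CPM in AKG 1, 2 and 3, against 15.7, 14.7 and 10.8 CPM in the Controls. Only AKG 1 lay above the Controls. On the log2 scale the change was 0.25 (SE 0.294, edgeR adjusted p = 0.528) and it was called in none of the 22 other fits. Without AKG 1 it was -0.12 (edgeR adjusted p = 0.557).

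Other matricellular and adhesive glycoproteins changed in both directions. Of 33 genes 27 could be tested, of which 12 rose and 8 fell, beside 25% and 25.2% of all tested genes. The list had a median log2 fold change of 0.14. Ccn2, the matricellular growth factor also called CTGF, had the smallest p of the list and a log2 fold change of 2.86 (SE 0.0884). Thbs2, the closest relative of Thbs1, averaged 69.9 ± 4.27 CPM in AKG and 31.2 ± 4.71 CPM in Control (log2 fold change 1.16, edgeR adjusted p = 1.29e-06). Igfbp7, which binds insulin-like growth factors, averaged 125 ± 7.23 CPM in AKG and 320 ± 8.24 CPM in Control (edgeR adjusted p = 2.66e-08). Smoc2, a calcium-binding relative of SPARC, averaged 28.9 ± 1.32 CPM in AKG and 58.7 ± 3.47 CPM in Control. Vwa1, a von Willebrand A domain protein of basement membranes, fell by 1.25 on the log2 scale (edgeR adjusted p = 7.8e-07). When totals set the scaling, 15 of these genes were higher, beside 56.7% of all tested genes, and 5 were lower. Igfbp7, Smoc2 and Vwa1 were still lower there (-0.92, -0.57 and -0.80 on the log2 scale).

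Proteases of the matrix were more often higher than lower, and proteoglycans the reverse. Over all tested genes 25% rose and 25.2% fell. Of 25 proteases and inhibitors 22 could be tested, of which 10 rose and 3 fell (median log2 fold change 0.29). Mmp14, a membrane-bound collagenase, averaged 118 ± 16.7 CPM in AKG and 53.7 ± 7.42 CPM in Control (edgeR adjusted p = 2.65e-05). Adamts1, which cleaves versican, and Adam10, a sheddase of surface proteins, rose by 0.92 and 0.52 on the log2 scale. Serpinh1, the collagen chaperone HSP47, averaged 323 ± 23.5 CPM in AKG and 498 ± 24.4 CPM in Control. Of 16 proteoglycan genes 12 could be tested, of which 1 rose and 5 fell (median -0.35). Dcn, the gene of decorin, averaged 355 ± 41.0 CPM in AKG and 510 ± 48.0 CPM in Control, and Prelp, Hspg2 and Ogn fell by 0.62, 0.40 and 0.37 on the log2 scale. These falls rested on the scaling, and with total counts 56.7% of all tested genes were higher. In that fit 17 protease genes were higher and 1 lower, and 5 proteoglycan genes were higher and 0 lower. Hspg2 and Ogn stood at 0.05 and 0.07.

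Several members had their lowest AKG value in AKG 2, the library with the lowest atrial and fibroblast marker sums of its group. Sln, an atrial regulator of the calcium pump, stood at 42.8, 0.186 and 28.8 CPM in AKG 1, 2 and 3, and at 0.476, 0.248 and 0 CPM in Control 1, 2 and 3. The 6 atrial markers, none at 0 in all libraries, summed to 858, 461 and 940 CPM in AKG 1, 2 and 3 and to 151, 144 and 92.1 CPM in the Controls. Nppa, the atrial natriuretic peptide gene, stood at 499.6, 454 and 720 CPM in the AKG libraries and 139, 135 and 85.7 CPM in the Controls, so it was high in AKG 2 as well. The other 5 atrial markers summed to 359, 7.58 and 219.6 CPM in AKG 1, 2 and 3 and to 12.0, 9.26 and 6.40 CPM in the Controls. Eln was likewise lower in AKG 2 than in AKG 1 and AKG 3. Fbn1, Fn1, Hmcn1, Postn, Spp1 and Thbs1 also had their lowest AKG value in AKG 2. For Hmcn1 and Postn the gap was small, at 103.8 and 517 CPM in AKG 2 against 104.0 and 524 CPM in AKG 3. Hmcn2, Sparc and Tnc had their lowest AKG value in AKG 3. The share of all tested genes with their lowest AKG value in AKG 2 was not counted. With AKG 2 alone against the Controls, Fn1 (0.80, edgeR adjusted p = 4.22e-07), Hmcn1 (0.27, 0.0136) and Spp1 (2.05, 0.00705) remained higher and Hmcn2 (-3.43, 7.15e-15) and Sparc (-0.30, 0.0237) lower. The lone AKG library is assumed there to vary like the Controls. With the atrial covariate the calls were Fn1 and Spp1 higher and Hmcn2 lower. In that fit calls over all genes also fell, to 1981 higher and 2103 lower. The atrial covariate includes Nppa, which was higher in each AKG library than in each Control. It therefore moved partly with the group, and the 2 cannot be fully told apart. Summed epicardial and mesothelial markers (8 genes) stood at 37.1 to 52.8 CPM in AKG and 27.4 to 29.4 CPM in Control, and smooth muscle and pericyte markers (10 genes) at 1370 to 1530 CPM in AKG and 1762 to 1841 CPM in Control. The part of any of these cell types in the members' changes was not tested.

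**Figure D3:**
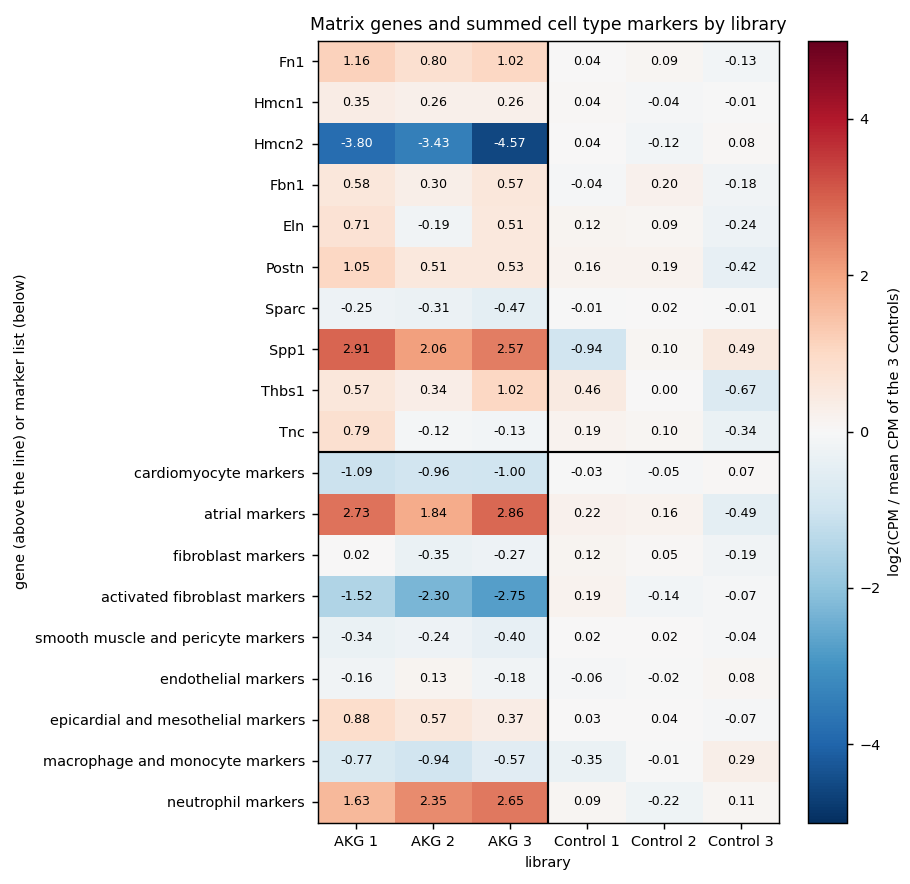
log2 ratio of the CPM of each gene (above the line) and of each summed marker list (below) to the mean of the 3 Controls, in the AKG libraries (left) and Control libraries (right). Hmcn2 is at -3.43 to -4.57 in AKG, Fn1 at 0.80 to 1.16, and Eln is below the Control mean in AKG 2, the AKG library with the lowest atrial sum.

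With the fibroblast list as a covariate, Fn1 and Postn were called higher and Hmcn2 lower. Over all genes that fit called 442 higher and 801 lower, so calls were lost throughout the table. Its covariate moved partly with the group, and the SE of Fn1 was 0.259 there against 0.0999 in the main fit. Against the summed fibroblast markers, which were mostly collagen transcript, 8 of the 10 genes lay wholly above the Controls in AKG and 1 wholly below, where 30.1% and 14.2% of tested genes did so on the same ratio. Sparc overlapped, at 35.5 to 44.2% in AKG and 39.4 to 48.7% in Control. Eln stood at 17.5 to 27.1% in AKG and 15.2 to 16.1% in Control on that measure, and Tnc at 0.491 to 0.755% and 0.400 to 0.468%.

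**Figure D4:**
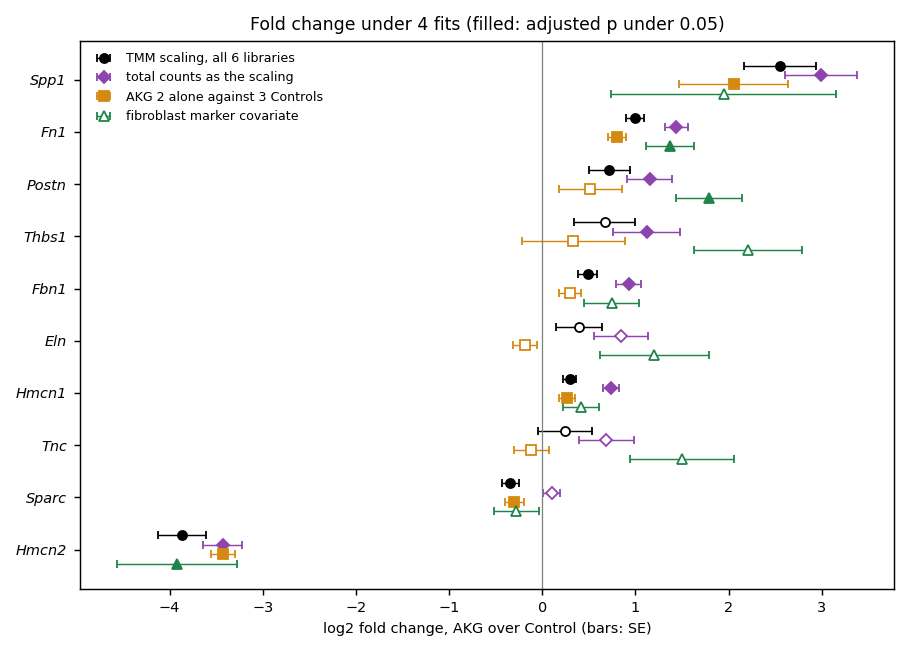
log2 fold change of each gene, AKG over Control, under 4 fits of edgeR's quasi-likelihood test, with SE bars and filled symbols where the adjusted p was under 0.05. Fn1, Hmcn1, Hmcn2, Spp1, Postn, Fbn1 and Thbs1 keep their direction in all 4. Eln and Tnc are below 0 with AKG 2 alone, and Sparc is above 0 with total counts as the scaling.

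In the deposited pathway column 4 of the 10 (Fn1, Tnc, Thbs1 and Spp1) carried the term for ECM-receptor interaction. The term had 72 tested genes, of which 26 were higher and 18 lower, beside 25% and 25.2% of all tested genes. Their median log2 fold change was 0.10. In the GENCODE M21 annotation exons of 7 members overlapped those of another gene, none of which was among the tested genes. The overlap covered 20.1% of the exon bases of Fbn1 and 18.8% of those of Spp1, and 1.88 to 3.42% for the other 5. For Spp1 the other gene lay on the same strand, so strand could not separate its reads from those of the member. For Fn1, Hmcn1, Tnc, Thbs1, Fbn1 and Eln it lay on the opposite strand. The sources used here did not say whether counting used strand, so whether those reads were kept apart is not known.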

How the data were processed

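RNA of 6 heart muscle cell preparations was sequenced, 3 per group. Per the file headers, the authors' table holds counts and FPKM of each gene in each library. All deposited counts are whole, and 60 zeros have an FPKM over 0, so they were taken as rounded expected counts (estimated counts). Per the submitters' processing notes the tools were HISAT2 2.1.0, RSEM 1.2.19 and DESeq2 1.20.0; what each did, the build and the gene models are not given in the sources used here. The authors' deposited log2 fold change is the ratio of their FPKM means, and it comes with their p-value and FDR (false discovery rate).

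The tests here ran on these counts with edgeR 4.0.16 in R 4.3.3. Rows without a symbol (30, 3.95e-05% of counts) were left out. Genes were kept with filterByExpr (minimum count 10, minimum total 15), scaled by TMM, and tested with the quasi-likelihood test and robust dispersion, with Benjamini-Hochberg adjustment over 13117 genes. The SE was worked back as log2 fold change over the root of the F value. Alternatives used DESeq2 1.42.0, limma 3.58.1 (also on log2 FPKM with pseudocounts 1 and 0.1, keeping genes that reach FPKM 1 in 3 libraries), other scalings and filters, covariates and left-out libraries.

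The members and lists were chosen with earlier results of these data known. Named were all members and up to 4 genes with the smallest p of each list (mean CPM 1 or more). Acta2, Col1a1, Col1a2, Col3a1, Cthrc1, Itga5, Itgb1, Lox, Nppa, Sln and Thbs2 were named after their values were seen.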

Additional observations from a re-analysis of the deposited data

How the results depend on the processing

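Fn1 and Hmcn2 kept their direction and call in all 22 alternatives, and Spp1 in 21. Over the fits that leave out 1 library, 2750 to 3296 genes were called higher and 2846 to 3243 lower, and 4 to 6 members higher with 2 lower in each. Those fits called 0 to 2 proteoglycan genes higher and 2 to 4 receptor genes lower. With AKG 2 alone 3 members were higher. Limma on log2(FPKM + 1), on log2(FPKM + 0.1) and on log2(FPKM + 1) with no filter called 6732, 6725 and 6895 genes higher and 1068, 1067 and 1141 lower, with 1 member lower in each, as with total counts (7431 and 1196). The fibroblast covariate left 442 genes higher and 801 lower, and the atrial covariate 1981 and 2103, each with 2 members higher and 1 lower. Sparc was positive in these FPKM fits (0.12 in each) and with total counts (0.10). Eln was negative with AKG 2 alone (-0.19) and the atrial covariate (-0.27), and Tnc there (-0.11 and -0.24) and without AKG 1 (-0.12, in a range of -0.12 to 0.41 over left-out libraries). The cause of these differences was not tested, beyond the shift of all genes that total counts and FPKM carry.

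The lists in the order receptors, elastic fibre, matricellular, proteases, proteoglycans had 14, 13, 15, 17 and 5 higher and 0, 1, 5, 1 and 0 lower genes with total counts. That fit called 56.7% of all tested genes higher, and limma on log2(FPKM + 1) called 58.1%. In the fits on log2(FPKM + 1) and log2(FPKM + 0.1), 12 receptor, 13 elastic fibre and 3 proteoglycan genes were higher, and 0, 2, 4, 1 and 0 of the lists were lower. With no filter on FPKM 12, 12, 17 and 5 receptor, elastic fibre, protease and proteoglycan genes were higher, and 0, 2, 5, 1 and 0 of the lists were lower. The fibroblast covariate gave 3, 4, 3, 2 and 0 higher and 0, 2, 3, 0 and 0 lower. With the atrial covariate 7 matricellular and 0 proteoglycan genes were higher, and with upper-quartile scaling 5 proteases were lower and 0 proteoglycans higher. DESeq2, limma-voom, non-robust dispersion and the replicate block each called 2 proteoglycan genes higher.

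Same-numbered libraries of the groups deviated together with correlations of 0.18, -0.06 and 0.06, and AKG 2 and AKG 3 did not correlate best with their own number, so the numbers were not taken as pairs. With the replicate number as a block 3257 genes were higher and 3314 lower, and 5 members higher and 2 lower. Depth limits Spp1 most, with 23 counts over the Controls.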
